A study of Mus musculus with 5 samples.

Results

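Calcium handling in the developing mouse cerebellum was followed through 10 genes: Atp2a2, Atp2a3 and Ryr2 of the calcium stores, Calm3, Camk2b and Ppp3ca of calmodulin signalling, the sensor and buffer genes Vsnl1, Hpcal1 and Calb2, and the kinase gene Prkcz. They were taken by name, as every entry of the deposited array table whose single gene symbol is one of these. This gave 11 of the 897 entries, since Atp2a3 has 2, and 10 of the 773 genes that the table names. Total RNA of cerebellum had been hybridised to arrays at 5 ages: before birth on embryonic day 18 (E18), and on day 7 (P7), day 14 (P14), day 21 (P21) and day 56 (P56) after it. The labels give no treatment or genotype that differs between ages, and strain, sex and number of animals were not stated in them. Each age has 1 column of values, which per the labels is a mean over 2 array experiments, so no p-value can be computed and the small number of arrays limits the precision.

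The values, between 0.01 and 100, were taken as percentages: each entry is set relative to its own highest age within an experiment, and the column gives the average over both experiments. No label states this scaling. Of the 897 entries, 420 stand at exactly 100 at 1 age and 0 at more than 1, and the 477 others all have 50 or more at 2 or more ages, as an average over experiments with different highest ages must. A value therefore compares ages of 1 entry and never the level of 1 gene with that of another. If both experiments lie between 0 and 100, a mean also bounds them: with a mean of 92.1%, neither can be under 84.2%. When 2 ages differ by more than 50 points, the ranges open to the experiments no longer touch, so neither experiment can have gone against the mean. An entry is said here to have risen or fallen where it differed by 2-fold or more.

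Neurons keep free calcium low by pumping it into the endoplasmic reticulum with SERCA pumps and let it out again through ryanodine and inositol trisphosphate receptors. The released calcium binds calmodulin, which switches on kinases such as CaMKII and the phosphatase calcineurin, and it binds smaller sensor proteins and buffers such as calretinin. In the cerebellum this machinery serves Purkinje cell synaptic plasticity and the firing of granule cells, which are born and wired largely after birth.

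Of the 11 entries, 10 rose between E18 and P56, for 9 of the 10 genes, and 0 fell, while Calm3 stayed within 2-fold. Among all entries measured, 22.6% rose and 52.5% fell. The genes were chosen with earlier results of these data known, so this contrast is a description and tests nothing. The median of the 11 differences was 1.78 (log2), against -1.07 over all entries, and the differences ran from -0.72 for Calm3 to a bound of 5.87 for the second Atp2a3 entry. All 10 that rose did so by more than 50 points, which 18.7% of the table did. The 11 entries had a median of 92.1% at P56 and 24.4% at E18, whereas the median over all entries was 42.0% at P56 and 84.5% at E18. Dividing each column by its median moved the median of all entries by 1.01 (log2) and gave 30.3% higher and 16.4% lower over the table; 10 of the 11 were higher on that scale too and 0 were lower. In whole tissue, a change in the number of cells of a type and a change in RNA per cell cannot be told apart.

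**Figure D1:**
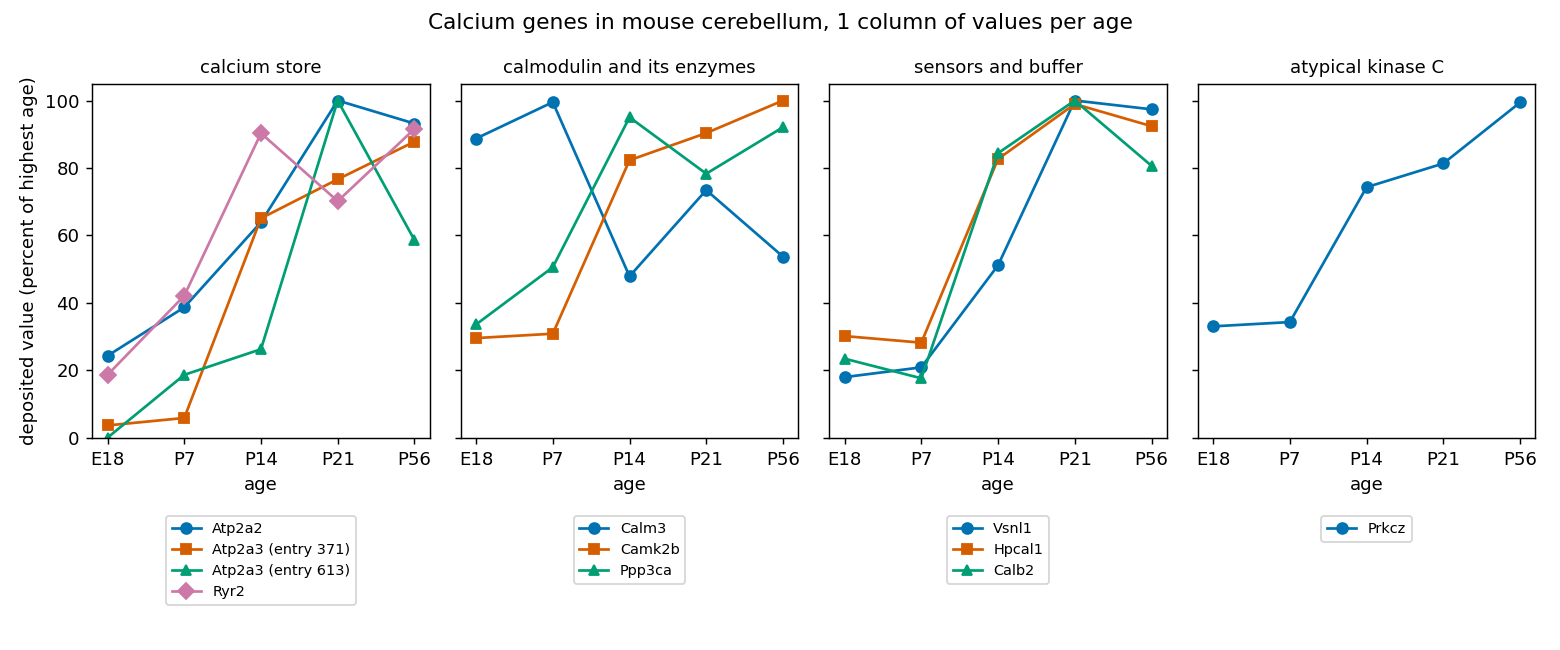
Deposited values (vertical axis, percent of the entry's own highest age) at the 5 ages (horizontal axis), 1 line per entry and 1 panel per role; each point is 1 column of values with no error bar. Most lines stay low at E18 and P7 and stand above 60% by P14, while Calm3 starts at 88.7% and entry 613 of Atp2a3 first passes 50% at P21.

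Start sites in the RefSeq table (GRCm38.p6) were matched for 7 of the 10 genes, with 10 windows in all; Atp2a2, Ppp3ca and Calb2 were not matched. The 250 bases before the start are printed for 3 genes as examples of different profiles: Atp2a3 with the largest rise, Camk2b with a smooth climb to P56, and Calm3, which did not rise. They lie at chr11:72960919-72961168 on the plus strand, chr11:6065749-6065998 on the minus strand and chr7:16924033-16924282 on the minus strand, and are written 5′ to 3′ along the gene. Capitals mark matches, on either strand, to the GC box GGGCGG, the TATA box TATAAA, the core TGACG of the cAMP response element and the E-box form CAGCTG.
Atp2a3: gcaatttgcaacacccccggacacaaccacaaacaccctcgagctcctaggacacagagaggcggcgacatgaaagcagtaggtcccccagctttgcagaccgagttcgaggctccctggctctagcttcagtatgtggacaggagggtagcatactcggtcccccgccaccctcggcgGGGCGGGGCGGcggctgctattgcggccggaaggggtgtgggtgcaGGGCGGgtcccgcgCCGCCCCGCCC
Camk2b: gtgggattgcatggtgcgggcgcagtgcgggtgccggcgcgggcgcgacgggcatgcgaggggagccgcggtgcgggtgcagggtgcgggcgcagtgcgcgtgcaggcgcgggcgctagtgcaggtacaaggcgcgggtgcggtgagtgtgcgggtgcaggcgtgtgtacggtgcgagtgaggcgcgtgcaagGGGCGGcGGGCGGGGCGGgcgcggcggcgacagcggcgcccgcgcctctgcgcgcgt
Calm3: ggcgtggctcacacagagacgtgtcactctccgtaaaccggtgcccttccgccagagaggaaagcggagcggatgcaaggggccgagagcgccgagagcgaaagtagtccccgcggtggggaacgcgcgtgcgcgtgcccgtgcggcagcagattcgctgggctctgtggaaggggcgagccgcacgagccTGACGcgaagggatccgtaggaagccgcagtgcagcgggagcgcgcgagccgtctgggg

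The Atp2a3 window holds 5 matches to the GC box, some of which overlap, and the Camk2b window 3. The Calm3 window holds 0 of these and 1 match to the core of the cAMP response element. The Ryr2 window also holds 0 GC boxes, although Ryr2 rose 4.90-fold between E18 and P56, as do a Vsnl1 window and a Prkcz window. A link between GC boxes and the rise was not tested. Over the 10 windows of the set 6 hold a GC box, and over all 32851 windows in RefSeq 32.7% do. Some genes have more than 1 window, and these 6 belong to 5 of the 7 genes. The response element core is in 3 of the 10 windows, which belong to 2 of the 7 genes, against 17.8% of all windows. The TATA box and the CAGCTG form of the E-box are in 0 of the 10, against 12.4% and 13% of all. Other forms of the E-box were not searched. The GC content of the 10 windows had a median of 65.0%, against 52.4% over all windows. These matches describe letters in a window and no binding was measured.

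The store pumps and the release channel come first. Atp2a2 encodes SERCA2, the pump found in nearly all cells. Its values were 24.4% at E18, 38.7% at P7, 63.9% at P14, 100% at P21 and 93.2% at P56. It climbed at each of the first 3 steps and was high at both late ages. At 93.2% at P56 against 24.4% at E18 it rose 3.83-fold, and by at least 1.77-fold in each experiment, yet no single step reached 2-fold.

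Atp2a3 encodes SERCA3, a second pump that Purkinje neurons are known to contain, and its 2 entries were kept apart. They are called here by their place in the table, entries 371 and 613. Entry 371 had 3.71% at E18, 5.92% at P7, 65.1% at P14, 76.7% at P21 and 87.8% at P56. Most of its rise fell between P7 and P14, where it was 11.0-fold higher at P14. At P56 it was 23.7-fold higher than at E18, and at least 10.2-fold higher in each experiment. With the lower limit at the 10th percentile of all values (20.4%), its log2 difference was 2.11 in place of 4.56 at P56 against E18, and 1.67 in place of 3.46 at P14 against P7. Entry 613 had 0.08% at E18, 18.7% at P7, 26.3% at P14, 100% at P21 and 58.7% at P56. Values under 1% were set to 1% before folds were taken, so the mean at P56 was at least 58.7-fold higher than at E18. In each experiment that rise was at least 17.3-fold. At P7 the mean of entry 613 was at least 18.7-fold higher than at E18. That difference was 18.6 points, which does not show how each experiment moved. With the limit at the 10th percentile the log2 difference of entry 613 was 1.52 in place of 5.87 at P56 against E18. At P7 against E18 it was 0 in place of 4.22 and no longer counted as a rise. Its steep step came a stage later, 3.80-fold between P14 and P21, and neither of its experiments can have gone the other way there.

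Both Atp2a3 entries were thus at or under 3.71% at E18 and above 50% at P21 and P56. In points their values parted most at P14 and again at P56, where entry 613 stood at 58.7% with 17.3% to 100% open to each experiment. Entry 371 was 59.2 points higher at P14 than at P7, and entry 613 was 7.60 points higher. At P14 entry 371 must lie at or above 30.2% in each experiment and entry 613 at or under 52.6%, so these ranges overlap. At P56 against P21 entry 613 differed by -41.35 points and entry 371 by 11.15 points; neither passed 50 points or 2-fold. The root mean square distance between the 2 log2 profiles, each centred on its own mean over the 5 ages, was 1.26, against a median of 0.628 over the 55 pairs of the 11 entries. This distance lies mostly in E18 and P7, where all values are under 20.4%. Entry 371 had 3.71% and 5.92% at these ages, and entry 613 had 0.08%, set to 1%, and 18.7%. The labels do not say which transcripts of the gene each probe reads.

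Ryr2 encodes the main ryanodine receptor of the brain, the channel through which stored calcium leaves. It stood at 18.7% at E18, 42.1% at P7, 90.3% at P14, 70.2% at P21 and 91.6% at P56. By fold it moved earlier than the other entries at or above 1%, passing 2-fold both at P7 against E18 (2.25-fold) and at P14 against P7 (2.14-fold). The first of these is a log2 difference of 1.17. With quantile normalization of the columns it was 0.87, under 2-fold. In points it was 23.4, which does not show how each experiment moved. By the first age at 50% or more, Ppp3ca came earlier, at P7 against P14 for Ryr2. At P56 it was 4.90-fold higher than at E18, with at least 2.22-fold in each experiment.

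Calmodulin and its enzymes did not move together. Calm3 encodes calmodulin, the calcium sensor that the enzymes below depend on. Its values were 88.7% at E18, 99.5% at P7, 47.9% at P14, 73.5% at P21 and 53.7% at P56, the one profile of the 11 that was highest before P14. It fell 2.08-fold at P14 against P7. On the percent scale it dropped by 51.6 points, so neither experiment can have gone up, but the fall assured in each is only 1.03-fold. The 2.08-fold fall was a log2 difference of -1.05. It became -0.48 with columns divided by their medians and -0.82 with quantile normalization, under 2-fold in both. At P56 against E18 Calm3 differed by -0.72 (log2), a direction that turned to 0.29 and 0.08 under those 2 scalings. The ranges open to its experiments overlap, 7.46% to 100% at P56 and 77.5% to 100% at E18. The labels do not say how specific the probe is.

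Camk2b, the beta subunit of CaMKII and the form that predominates in the cerebellum, had 29.6% at E18, 30.9% at P7, 82.3% at P14, 90.4% at P21 and 100% at P56. It was flat before P7 and climbed without a dip afterwards. The step at P14 against P7 was 2.66-fold and 51.4 points, with at least 1.05-fold in each experiment. Both experiments were at their highest at P56, where the entry was 3.38-fold higher than at E18.

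Ppp3ca, the catalytic alpha subunit of calcineurin, had 33.6% at E18, 50.6% at P7, 95.0% at P14, 78.3% at P21 and 92.1% at P56. It was the one entry that rose by P56 and already stood above 50% at P7. No single step reached 2-fold, the largest being 1.88-fold at P14 against P7. At P56 it was 2.74-fold higher than at E18, the smallest of the 10 rises, with at least 1.25-fold in each experiment.

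**Figure D2:**
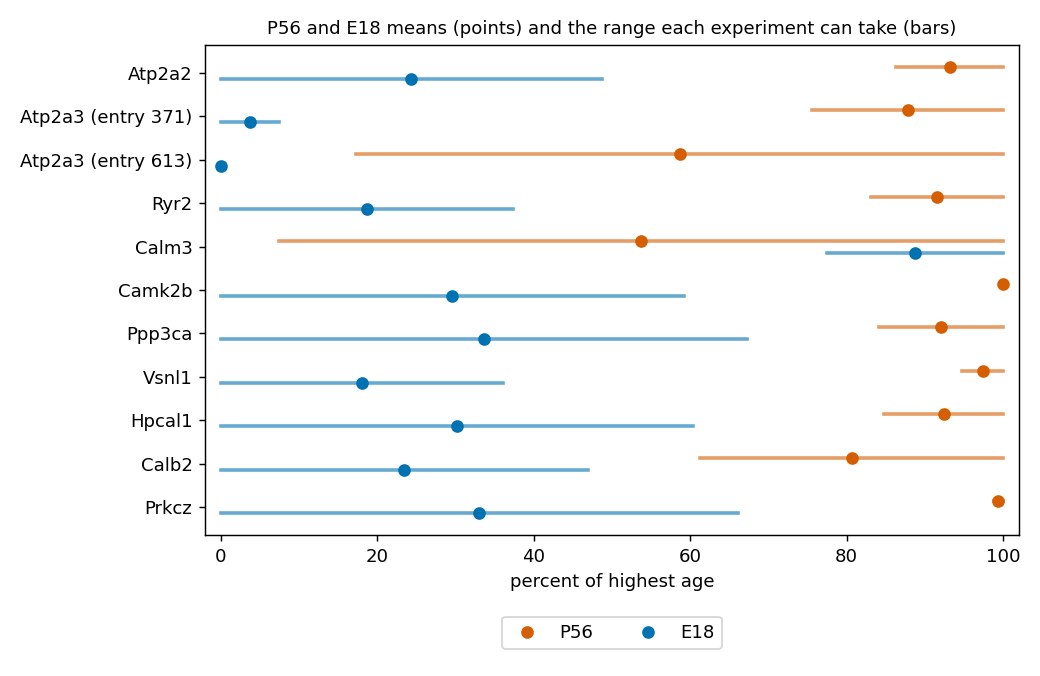
Means at P56 and E18 (points) and the range that each of the 2 experiments behind a mean can take if it lies between 0 and 100 (bars), in percent of the highest age (horizontal axis), for the 11 entries (vertical axis). For 10 entries the 2 ranges do not touch; for Calm3 they overlap.

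The sensors and the buffer were low at E18 and P7 and stood at 99.0% to 100% at P21. Vsnl1 encodes visinin-like 1, a sensor protein that moves to membranes when it binds calcium. It had 18.0% at E18, 20.9% at P7, 51.2% at P14, 100% at P21 and 97.4% at P56. The entry was 2.44-fold higher at P14 than at P7 and 1.95-fold higher at P21 than at P14, so its climb took both steps. At P56 it was 5.40-fold higher than at E18, and at least 2.63-fold in each experiment, the largest such bound outside Atp2a3.

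Hpcal1 encodes a relative of Vsnl1 in the same sensor family. Its values were 30.2% at E18, 28.2% at P7, 82.7% at P14, 99.0% at P21 and 92.4% at P56. It rose 2.93-fold at P14 against P7, by 54.4 points, with at least 1.16-fold in each experiment. At the steps on either side it differed by less than 2-fold. Unlike Vsnl1, it was above 80% by P14. At P56 the entry was 3.06-fold higher than at E18.

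Calb2 encodes calretinin, a calcium buffer of granule cells and unipolar brush cells that mouse Purkinje cells lack. It stood at 23.5% at E18, 17.7% at P7, 84.4% at P14, 100% at P21 and 80.7% at P56. The 4.77-fold rise at P14 against P7 was the largest at that step after entry 371 of Atp2a3, and at 66.7 points it was the largest in points. At P56 it was 3.43-fold higher than at E18, with at least 1.30-fold in each experiment.

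Prkcz encodes protein kinase C zeta, an atypical member of its family whose activity does not depend on calcium. In brain the same gene also yields a shorter, constantly active form from an internal start. Its values were 33.1% at E18, 34.3% at P7, 74.3% at P14, 81.3% at P21 and 99.4% at P56. It rose 2.16-fold at P14 against P7 and kept climbing to P56, where it was 3.01-fold higher than at E18. The labels do not say which of these forms the probe reads.

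Step by step, most of the movement lay between P7 and P14. At P14 against P7, 7 of the 11 entries rose and 1 fell, against 14.4% and 24.7% of all entries. The split became 10 higher and 0 lower with columns divided by their medians, and 9 higher and 0 lower with quantile normalization. The 7 were entry 371 of Atp2a3, Ryr2, Camk2b, Vsnl1, Hpcal1, Calb2 and Prkcz, and 4 of them passed 50 points. Before that, at P7 against E18, 2 entries rose, entry 613 of Atp2a3 and Ryr2, and 0 fell, against 5.80% and 2.79% of the table. The other 9 differed by less than 2-fold, with differences at P7 against E18 of -1.95 points for Hpcal1 and -5.81 points for Calb2, and of 1.27 to 17.0 points for the remaining 7.

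After P14 fewer entries passed 2-fold. At P21 against P14, 1 entry rose, entry 613 of Atp2a3, and 0 fell, against 3.23% and 13.2% of the table. Vsnl1 was 48.8 points, Atp2a2 36.1 points and Calm3 25.6 points higher at P21 than at P14, each by less than 2-fold; with columns divided by their medians 4 were higher, the others being Atp2a2, Calm3 and Vsnl1. At P21 every one of the 11 stood between 70.2% and 100%. At P56 against P21, 0 entries rose and 0 fell, against 2.68% and 2.23% of the table, and the differences ran from -0.77 (log2) for entry 613 of Atp2a3 to 0.38 for Ryr2. By the first age at 50% or more, Calm3 came at E18, Ppp3ca at P7, 8 entries at P14 and entry 613 of Atp2a3 at P21. Of the 11, 9 had their highest value at P21 or P56, as did 23.3% of the table.

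**Figure D3:**
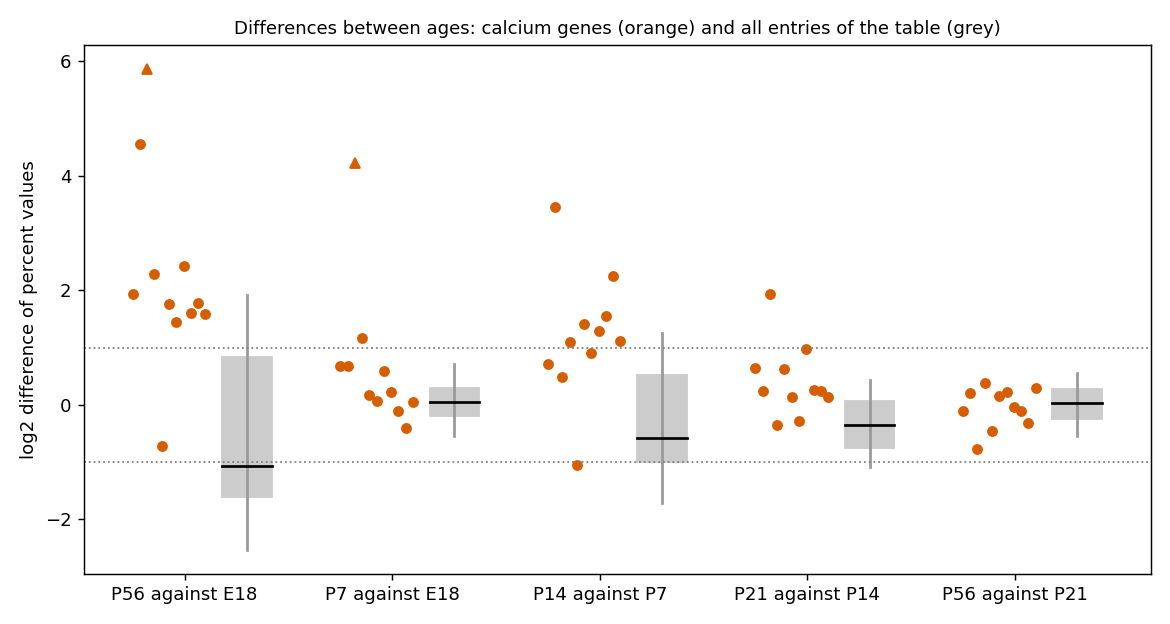
Difference in log2 percent (vertical axis) for each comparison of ages (horizontal axis). Orange points are the 11 entries, with triangles for lower bounds against a value under 1%; grey boxes span the 25th to 75th percentile of all 897 entries, grey lines the 10th to 90th, black bars mark their median and dotted lines mark 2-fold. The orange points stand highest above the grey median at P56 against E18 and at P14 against P7.

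Within the set, Camk2b and Hpcal1 had the most alike profiles, with a root mean square distance of 0.097 (log2, over 5 ages), and Camk2b and Prkcz came next at 0.137. Entry 613 of Atp2a3, whose E18 value was set to 1%, and Calm3 were farthest apart, at 2.52. Ryr2 and Ppp3ca shared a dip at P21: both were at least 10 points lower at P21 than at P14 and at P56, as were 91 of the 897 entries. The dip depends on the scale between columns. Once every column was divided by its median, 0 of the 2 genes were lowest at P21 among these 3 ages; with quantile normalization 2 of the 2 were.

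Among other named genes, the closest profiles were found for each entry by the same distance over the 5 ages. Atp2a2 was nearest to the phosphofructokinase gene Pfkm at 0.080, entry 371 of Atp2a3 to Hs3st1 at 0.221, and entry 613 to the myelin gene Mag at 0.699. Ryr2 was nearest to Thy1, a neuronal surface protein gene, at 0.119, and Calm3 to Ubap2 at 0.192. The vesicle scission gene Dnm1 was nearest to Camk2b at 0.066, and the neurochondrin gene Ncdn to Ppp3ca at 0.056. For the sensors and the buffer these were the carbonic anhydrase gene Car2 for Vsnl1 at 0.203, Camk2b for Hpcal1 at 0.097 and Tmem62 for Calb2 at 0.180. Prkcz was nearest to Tgoln1 at 0.086. Over 5 points many profiles lie close, and of the 33 nearest entries (3 for each of the 11) 3 were also among the 3 nearest by Pearson correlation. All 3 are neighbours of Atp2a2. For every other entry the neighbour named here was not among the 3 nearest by correlation.

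Outside the 10 genes, 116 further genes of calcium handling were listed by role, and 10 of them are named in the table. At P56 against E18, 4 of these 10 rose and 4 fell, the other 2 differed by less than 2-fold, and the median was -0.67 (log2), beside 22.6% higher, 52.5% lower and a median of -1.07 over all entries; with columns divided by their medians, and with quantile normalization, 4 were higher and 2 lower. The buffers and S100 genes held all 4 rises. Pvalb, the parvalbumin gene, rose 40.8-fold, with 96.6% at P56 and 2.37% at E18. S100b, whose protein binds calcium in glial cells, rose 16.1-fold. S100a13 rose 3.59-fold, and Calb1, the calbindin gene of Purkinje cells, rose 2.48-fold with 37.4%, 60.9%, 95.2%, 78.4% and 92.8% from E18 to P56. S100a10 had 64.6% at P56 and 100% at E18.

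The genes of this wider list that fell have other roles. Marcks and Marcksl1, which encode membrane proteins that bind calmodulin and are substrates of protein kinase C, fell 4.90-fold and 4.78-fold. Canx, the calnexin gene, and Calu, the calumenin gene, encode calcium-binding proteins of the secretory pathway and fell 2.45-fold and 2.35-fold; Rcn2, the reticulocalbin 2 gene, had 52.6% at P56 and 86.3% at E18.

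Markers of the tissue's cell types moved over the same ages, and their part in these results was not tested. Of 7 Purkinje cell markers 3 are named in the table (Calb1, Pvalb and Pcp2), and all 3 rose, with 82.7% to 96.6% at P56 and 2.37% to 37.4% at E18. Of 7 granule cell markers 5 are named and 4 rose, Gabra6 and Gabrd being under 1% at E18; Neurod1 had 40.6% at P56 and 56.7% at E18. All 6 markers of dividing progenitors fell, with 0.03% to 21.1% at P56 and 49.5% to 93.2% at E18. Of 5 oligodendrocyte markers 3 are named and all 3 rose. Of 4 astrocyte markers 3 are named and all 3 rose, although Gfap was highest at P7, with 100%, and had 44.2% at P56. The 4 markers of meninges and vessels fell. The choroid plexus gene Ttr had 62.9% at P56 and 100% at E18. Of 2 microglial genes Ctss rose and Laptm5 had 48.9% at P56 and 80.4% at E18. Of the 2 blood genes of the list, 0 are named in the table as the single symbol of an entry. Since each entry is scaled to its own highest age, these values show how markers moved and not how strongly the tissue expresses them.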

How the data were processed

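Per the labels, the deposited values are the mean signal of 2 array experiments for each age of mouse cerebellum; no label states background correction, normalization or how probes were picked. The deposited unit was read from the values as percent of each entry's highest age, which no label states. Names were those of the array platform's annotation: 787 entries carry 1 symbol, 16 several and 94 none, and 0 of the 16 hold a gene of the set. By gene ID 10 of the 10 genes were found in the RefSeq table of GRCm38.p6 with the same symbol. No array coordinates were used.

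Values under 1% (20 in the table, 1 in the set) were set to 1%, log2 differences were taken between ages, and 2-fold counted as a change (Python 3.11.15, NumPy 2.4.6, pandas 2.3.3). Every entry of the set and of the wider list is given, with the 3 nearest entries as the rule for other genes; of these the text names the nearest. With 1 sample per age no test was made. The limit of 1% and the rule of 50 points were taken over from earlier work on these values. The genes, lists and comparisons were chosen with earlier results of these data known. The calculation was tested on simulated data. Alternatives were a limit at the 10th percentile of values (20.4%), a pseudocount of 1, division of every column by its median, quantile normalization, and thresholds of 1.5-fold and 3-fold.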

Additional observations from a re-analysis of the deposited data

How the results depend on the processing

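The count of 10 entries higher at P56 than at E18 stayed at 10 under both scalings, the limit at the 10th percentile, the pseudocount and the 1.5-fold threshold, and was 9 at 3-fold, without Ppp3ca. With 1.5-fold, 1 entry was lower at P56 than at E18 (Calm3) in place of 0, 5 were higher at P7 than at E18 in place of 2, 4 higher at P21 than at P14 in place of 1, and 1 lower at P56 than at P21 in place of 0. With 3-fold, 1 was higher at P7 than at E18, 2 were higher at P14 than at P7 in place of 7 and 0 were lower in place of 1, and 2 of the wider list were lower at P56 than at E18 in place of 4. The limit at the 10th percentile left 1 entry higher at P7 than at E18, as did quantile normalization; under that limit entry 613 of Atp2a3 had a difference of 0 at that step, because both its values lie under the limit. Columns divided by their medians gave 0 lower at P14 than at P7 and 4 higher at P21 than at P14, and left 2 of the wider list lower; quantile normalization gave 0 and 2 for the first and the last of these. Of the 33 nearest profiles 3, all of them neighbours of Atp2a2, were also nearest by Pearson correlation, which ignores the size of a change. Of the 55 differences of single entries, 0 changed side of the 2-fold threshold with a pseudocount of 1. No paired analysis was possible because each age has 1 column. Without replicates, a difference under 50 points does not show how each experiment moved.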
